A study of Homo sapiens with 6 samples.

Results

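Cells of HEK293, a human embryonic kidney line, were transfected with an siRNA aimed at circRAB3IP, a circular RNA of the RAB3IP gene, and set against cells given the control siRNA (NTC in the records, whose genotype field spells it out as a no template control). These groups, siRAB3IP and control, hold 2 libraries each and make up 4 of the 6 libraries of the series. They were chosen by the library identifiers that the authors' deposited table ties to the names siRAB3IP and CTRL. The other 2 libraries, siCAMSAP1, received an siRNA against circCAMSAP1, a circular RNA of the CAMSAP1 gene, and are used here as another knockdown on the same line. In all 3 groups the siRNA was delivered with Lipofectamine RNAiMAX, the cells were lysed in TRIzol 48 hours later, and mRNA libraries were made with a TruSeq RNA kit. The line is a single established one and every group carries the transfection itself. Whether replicate libraries stem from separate cultures is not stated in the labels. The p-values therefore rest on the spread between 2 libraries a group, which may be technical alone.

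A circular RNA forms when a downstream splice site is joined to an upstream one, which leaves a closed loop with neither cap nor poly(A) tail. An siRNA across that junction is meant to cut the loop and to spare the linear mRNA of the same gene. The title of the series ties circRAB3IP to proliferation, to gene expression and mRNA processing, and to signals that pass between cells. In dividing cells, D-type cyclins with CDK4 or CDK6 phosphorylate the RB protein, which frees E2F factors to switch on the genes of DNA replication, and B-type cyclins with CDK1 then drive mitosis. Before export an mRNA is capped, spliced and cleaved with addition of a poly(A) tail, and in the cytoplasm it is finally deadenylated, decapped and degraded. Paracrine signals are secreted proteins, such as chemokines, BMPs and WNTs, that act on neighbouring cells.

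The records and the deposited tables do not name the libraries alike. For 4 of the 6 libraries the title of the record gives another group than the table, and in the genotype field the 2 knockdown names are exchanged. Each normalised column of the authors' tables is a fixed multiple of 1 count column (6 of 6 matched), so the table names are tied to the counts, and these names are used throughout. Grouped by title, 0 of 22331 genes differed between siRAB3IP and control by edgeR at an adjusted p of 0.05, 330 (1.48%) had an unadjusted p under that value, and DESeq2 called 0. Which set of names is right is not given in the sources used here, and every direction below holds for the libraries labelled siRAB3IP in the authors' tables.

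The 6 libraries held 37379217 to 39637733 fragments assigned to genes. Values are given in CPM, the counts of a gene scaled to 1000000 assigned fragments after edgeR's TMM correction between libraries, replicate 1 before replicate 2, and they are not divided by gene length. Fragments were counted without strand, so genes marked with a dagger (†), which share exonic bases with another gene on either strand, have uncertain values. In the 11784 genes that averaged 5 CPM or more, the control libraries differed from each other by over 1.5-fold in 57 genes (0.484%) and the siRAB3IP libraries in 42 (0.356%). Between the groups such differences were found in 453 to 661 genes (3.84% to 5.61%), depending on the pair of libraries. Of 9 genes used to check the cell line, 7 passed the filter on low counts, and the simple-epithelial keratins KRT8† and KRT18† were lower in siRAB3IP. KRT8 read 927 and 828 CPM in control and 527 and 659.5 in siRAB3IP, and KRT18 read 453 and 411 CPM in control and 241 and 282 in siRAB3IP. PAX2, PAX8, NEFM and EPCAM were under 1 CPM in all 6 libraries. Of 15 blood and immune markers 7 passed the filter and 3 rose, LCP1 with 1.07 and 1.403 CPM in control and 4.15 and 4.50 in siRAB3IP, ITGAM with 0.161 and 0.0968 CPM in control and 0.793 and 0.586 in siRAB3IP and HBA2 with 0.642 and 0.266 CPM in control and 1.38 and 1.07 in siRAB3IP. Of 9 fibroblast markers 1 of 6 tested fell, the collagen COL1A1 with 9.52 and 8.37 CPM in control and 4.84 and 5.51 in siRAB3IP, and of 7 endothelial markers 1 of 4 tested rose, VWF with 3.16 and 3.36 CPM in control and 4.95 and 7.32 in siRAB3IP. Summed over each whole list, blood markers read 6.79 and 7.09 CPM in control and 11.001 and 10.997 in siRAB3IP, fibroblast markers 24.7 and 32.9 CPM in control and 20.6 and 27.9 in siRAB3IP, endothelial markers 4.09 and 4.94 CPM in control and 6.29 and 8.89 in siRAB3IP and markers of other epithelial lines 8.67 and 8.88 CPM in control and 14.4 and 24.5 in siRAB3IP. The last sum was nearly all KRT17†, at 8.29 and 7.91 CPM in control and 13.7 and 23.8 in siRAB3IP and 31.1 and 53.4 CPM in siCAMSAP1. The defining leukocyte and endothelial genes PTPRC and PECAM1 were at or near 0, and the part of such cells in the values below was not tested. In bulk RNA, fewer cells of a type and less RNA per cell cannot be told apart. 3 of the 7 calls named held in every fit without 1 library, and ITGAM, HBA2, KRT8 and VWF lost the call without at least 1 of control replicate 2 and siRAB3IP replicates 1 and 2 (adjusted p from 0.0617 to 0.264 there). With the replicate number as a block KRT17 also passed (adjusted p = 0.00568).

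RNAs that carry no poly(A) tail were read in all libraries, and their sums differed between the groups to unequal degrees. The 29 loci of 7SK, the small nuclear RNA that holds the elongation factor P-TEFb, summed to 26326 and 24022 CPM in control and 32336 and 30199.5 CPM in siRAB3IP. The spliceosomal small nuclear RNA genes summed to 1686 and 1906 CPM in control and 2272 and 2342 CPM in siRAB3IP, most of it from the U1 gene RNU1-1, and the 6 of 101 called higher are near the 6.58% of all genes. The clustered histone genes, whose mRNAs end in a stem-loop, summed to 14066 and 11765 CPM in control and 11638 and 9096 CPM in siRAB3IP, with 20 of 56 called lower and a median log2 fold change of -0.41. The 61 loci of 7SL, the RNA of the signal recognition particle, summed to 41921 and 37858 CPM in control, 45465 and 44845 CPM in siRAB3IP and 46631 and 46286 CPM in siCAMSAP1, with 1 called in each direction. The 146 small nucleolar and Cajal body RNA genes, 13 of them called higher, summed to 13018 and 13935 CPM in control, 15047 and 17839 CPM in siRAB3IP and 12086 and 17577 CPM in siCAMSAP1. For these 4 sums of RNAs without a tail both siRAB3IP libraries were above both control libraries, but siCAMSAP1 was as high for 7SL and its replicates spanned the groups for the small nucleolar RNAs. For the histones both siRAB3IP libraries were below both of control, replicate 1 only just. The part of RNA selection in these sums, and in the values of the genes below, was not tested. Among the most abundant genes, 7SK itself read 24726 and 22310.0 CPM in control and 30133 and 28033 in siRAB3IP, and RNU1-1, a gene of U1 RNA, read 1301 and 1462 CPM in control and 1760.1 and 1843 in siRAB3IP. Both have near-identical copies, so the share of each copy is uncertain. None of the 2 calls named held in every fit without 1 library, and RNU1-1 and 7SK lost the call without at least 1 of control replicates 1 and 2, siRAB3IP replicates 1 and 2 and siCAMSAP1 replicates 1 and 2 (adjusted p from 0.0517 to 0.296 there). Under other scalings, filters or tools the adjusted p missed the threshold for 7SK (adjusted p up to 0.0943).

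Of 22331 genes tested, 2671 differed between siRAB3IP and control at an adjusted p of 0.05, which is 12% of them. Higher calls numbered 1469 (6.58%) and lower calls 1202 (5.38%), and the median log2 fold change of all genes was -0.01. With upper-quartile scaling the split turned to 1296 higher and 1412 lower. With the replicate number as a block 5590 genes passed and 82 of the 130 counts of higher or lower calls per list moved by over 1.5 times, and against a minimum fold of 1.2 there were 702. Most changes were small. The median called rise was 1.38-fold and the median called fall 1.45-fold, while 252 rises and 137 falls reached 2-fold. Left out in turn, siRAB3IP replicate 1, siRAB3IP replicate 2 and control replicate 2 took the count to 1144, 1014 and 1544. The plot of all genes by abundance shows that the steepest fold changes belong to genes of low abundance.

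**Figure D1:**
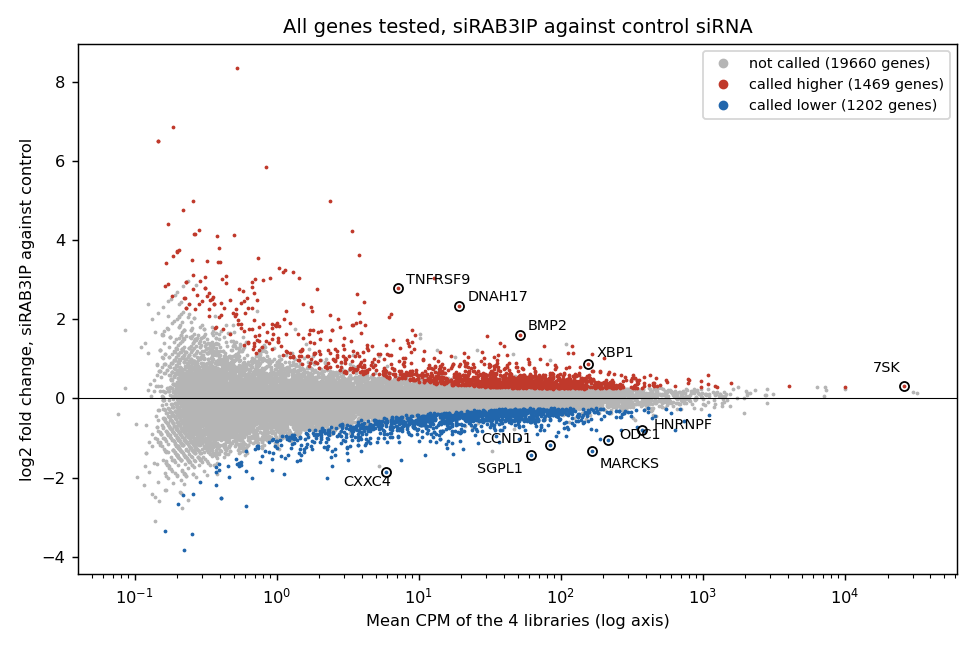
Each point is 1 of the 22331 genes tested, by its mean CPM in the siRAB3IP and control libraries (log axis) and its log2 fold change, siRAB3IP against control. The 1469 genes called higher are red, the 1202 called lower are blue, and circled genes are labelled by symbol, with 7SK at the far right and TNFRSF9 among the highest.

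Above a mean of 5 CPM, the steepest rises included those of LINC02154, PCLO and OSTM1. LINC02154, a long intergenic RNA, read 1.93 and 2.83 CPM in control and 10.3 and 9.67 in siRAB3IP (2.06 ± 0.19 on the log2 scale, here and below ± SE, also for changes given as a rise or fall by a number, adjusted p = 4.84e-05). PCLO, a scaffold of the presynaptic zone, read 18.8 and 22.2 CPM in control and 52.1 and 56.0 in siRAB3IP (1.399 ± 0.13, adjusted p = 7.63e-05). OSTM1, a partner of the lysosomal chloride transporter CLC-7, read 42.9 and 44.6 CPM in control and 98.0 and 119 in siRAB3IP (1.31 ± 0.10, adjusted p = 7.81e-06). For each of these the siRAB3IP libraries lay at more than 2 times the higher control library. SPOCK1, a proteoglycan of the matrix, rose by 1.35, OLFM1, a secreted olfactomedin, by 1.39, the cytokine receptor subunit IL31RA by 1.33, the interleukin-6 receptor IL6R by 1.31 and the transmembrane SHISAL1 by 1.24. GADD45B, a stress sensor, read 81.7 and 56.5 CPM in control and 205 and 138 in siRAB3IP, so that its siRAB3IP libraries were far apart (1.31 ± 0.25, adjusted p = 0.0265). The pseudogene RPLP0P2, at 3.58 and 4.77 CPM in control and 12.3 and 15.5 in siRAB3IP, resembles RPLP0, and its reads are uncertain for that reason. 8 of 10 calls outlasted the loss of each library in turn, and IL6R and GADD45B lost the call without at least 1 of control replicates 1 and 2 and siCAMSAP1 replicates 1 and 2 (adjusted p from 0.0538 to 0.246 there). A change of scaling, filter or tool took the call from GADD45B (adjusted p up to 0.156).

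Above the same mean, the steepest falls included those of METTL7A, FZD4 and DPYSL2. METTL7A, a membrane methyltransferase of lipid droplets, read 31.0 and 41.3 CPM in control and 15.3 and 17.7 in siRAB3IP (-1.13 ± 0.13, adjusted p = 0.000158). FZD4†, a WNT receptor, read 20.5 and 26.3 CPM in control and 10.5 and 10.97 in siRAB3IP (-1.12 ± 0.12, adjusted p = 0.000146). DPYSL2, which binds tubulin in growing axons, read 44.8 and 56.1 CPM in control and 22.2 and 24.8 in siRAB3IP (-1.10 ± 0.11, adjusted p = 6.17e-05). For each of these genes the siRAB3IP libraries were closer to each other than the control libraries were, and the groups did not overlap. The histone demethylase KDM7A read 20.8 and 23.0 CPM in control and 10.6 and 10.1 in siRAB3IP, the cathepsin CTSV 17.3 and 18.9 CPM in control and 8.94 and 7.99 in siRAB3IP, and the mitochondrial sulphurtransferase TST† 28.3 and 24.5 CPM in control and 12.9 and 11.9 in siRAB3IP. Others on the log2 scale were the fibrillar collagen COL27A1 at -1.11, the fibulin EFEMP2† at -1.09, the collagen receptor MRC2 at -1.10 and the phospholipid transfer protein PLTP† at -1.07. The RAS-association protein RASSF2 went from 14.2 and 18.3 CPM to 6.45 and 5.54 CPM, and the retroelement-derived NYNRIN from 22.1 and 28.4 CPM to 9.15 and 10.01 CPM. Leaving out any 1 library ended none of these 12 calls.

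Ranked by difference in CPM, the largest shifts were those of abundant genes. FTL, the light chain of the iron store ferritin, read 909 and 848 CPM in control and 1178 and 1448 in siRAB3IP, while TFRC, the transferrin receptor that takes iron up, read 584 and 449 CPM in control and 394 and 332 in siRAB3IP. Their log2 fold changes were 0.58 ± 0.10 and -0.51 ± 0.12, and neither pair of groups overlapped. EEF2†, the translocase of the ribosome, read 3676 and 3486 CPM in control and 4255 and 4701 in siRAB3IP, and TMBIM6, a membrane protein of the endoplasmic reticulum, 667 and 638 CPM in control and 912 and 916 in siRAB3IP. The ribosomal protein genes RPS24 and RPS19 rose by 0.37 and 0.32. On the falling side DEPP1†, a FOXO-induced gene of autophagy, read 483 and 504 CPM in control and 277 and 278 in siRAB3IP, and the citrate synthase gene CS† read 340.3 and 329.9 CPM in control and 214 and 173 in siRAB3IP. The linker histone H1-2 fell by 0.42, HIST1H3B by 0.38 and H2AC11 by 0.44, with the histone mRNAs' summed values given above. 4 of these 11 calls held when any single library was dropped, and the call of TFRC, H1-2, HIST1H3B, H2AC11, EEF2, RPS24 and RPS19 ended without at least 1 of control replicates 1 and 2, siRAB3IP replicates 1 and 2 and siCAMSAP1 replicates 1 and 2 (adjusted p from 0.0501 to 0.353 there). Under other scalings, filters or tools the adjusted p missed the threshold for EEF2 and HIST1H3B (adjusted p up to 0.0523).

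The linear mRNA of RAB3IP† (hg19 chr12:70132461-70216984) was not called, at 57.5 and 62.5 CPM in control and 68.1 and 66.7 in siRAB3IP (0.17 ± 0.08, adjusted p = 0.225) and 56.3 and 61.6 CPM in siCAMSAP1. Its protein, also called Rabin8, activates the small GTPase RAB8, which RAB11 vesicles recruit to build cilia and lumens. A count per gene does not tell the circular form from the linear one, so these counts check neither the knockdown nor the labels. Of 25 genes of the RAB8 and RAB11 pathway, 1 rose and 3 fell, with a median of 0.03. RAB3IL1, the paralogue of RAB3IP, read 4.95 and 4.69 CPM in control and 6.29 and 8.84 in siRAB3IP (0.65 ± 0.17, adjusted p = 0.0273). RAB8B, a paralogue of RAB8A, read 30.4 and 31.9 CPM in control and 21.3 and 21.6 in siRAB3IP (-0.54 ± 0.09, adjusted p = 0.00191). The exocyst subunit EXOC1, which tethers vesicles to the membrane, read 59.1 and 57.2 CPM in control and 41.2 and 41.6 in siRAB3IP, and the secretory GTPase RAB3D† read 13.2 and 13.5 CPM in control and 9.89 and 9.98 in siRAB3IP. In siCAMSAP1 RAB8B stood at 32.3 and 31.2 CPM and EXOC1 at 52.9 and 52.9 CPM, and the siRAB3IP libraries were lower than those for both (log2 difference -0.56 and -0.36, adjusted p = 0.00176 and 0.0122). Of 18 genes tested within 1 Mb of RAB3IP, 4 were called higher and 2 lower, against 6.58% and 5.38% of all genes tested. Whether position plays a part was not tested. Named after their values were seen, the receptor phosphatases PTPRR† and PTPRB† rose by 1.73 and 1.08 and the channel gene BEST3 by 0.86, while the channel subunit KCNMB4 fell by 0.67 and the chromatin reader YEATS4 by 0.33. Against siCAMSAP1 PTPRR and YEATS4 were called the same way (0.96 and -0.46, adjusted p = 0.0451 and 0.00359). PTPRB, BEST3 and KCNMB4 were not called there (adjusted p from 0.272 to 0.439). Dropping libraries singly left 4 of 9 calls in place throughout, and the call of RAB3IL1, RAB3D, BEST3, YEATS4 and KCNMB4 ended without at least 1 of control replicates 1 and 2, siRAB3IP replicates 1 and 2 and siCAMSAP1 replicates 1 and 2 (adjusted p from 0.0540 to 0.286 there). A change of scaling, filter or tool took the call from BEST3 (adjusted p up to 0.0807).

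Among the G1 regulators cyclin D1 fell and cyclin D2 rose. CCND1† (hg19 chr11:69455855-69469242) read 111 and 122 CPM in control and 50.7 and 51.9 in siRAB3IP (-1.18 ± 0.08, adjusted p = 2.56e-06), and both siCAMSAP1 libraries, at 114 and 116 CPM, lay near those of control. CCND2† read 276 and 273 CPM in control and 346 and 438 in siRAB3IP (0.52 ± 0.10, adjusted p = 0.00452). The D-type partners were not called, with CCND3† at 0.29 ± 0.09, CDK4† at 0.16 ± 0.09 and CDK6† at 0.34 ± 0.11. Per kilobase of exon, the mean level of CCND1 was 24.1 CPM in control and 10.6 in siRAB3IP, and that of CCND2 was 38.3 and 54.8, so that on this scale CCND2 was the higher of the pair in both groups. Of the 7 CDK inhibitors 2 rose, both of the INK4 family that blocks CDK4 and CDK6. CDKN2B read 22.7 and 21.995 CPM in control and 28.5 and 38.5 in siRAB3IP, and CDKN2D read 6.31 and 6.10 CPM in control and 9.52 and 8.81 in siRAB3IP. The p21 gene CDKN1A was not called at 78.8 and 67.3 CPM in control and 90.2 and 84.1 in siRAB3IP (0.26 ± 0.11), nor were CDKN1B (0.01 ± 0.08), CDKN1C (-0.17 ± 0.17), CDKN2A† (-0.13 ± 0.11) and CDKN2C (-0.01 ± 0.08). 1 of the 4 calls named held in every fit without 1 library, and CDKN2D, CCND2 and CDKN2B no longer passed without at least 1 of control replicates 1 and 2 and siRAB3IP replicates 1 and 2 (adjusted p from 0.0520 to 0.133 there). With the replicate number as a block CCND3, CDK4, CDK6 and CDKN1A also passed (adjusted p from 3.32e-05 to 0.0453).

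Among 13 RB family and E2F genes, E2F1, the activator of S-phase genes, rose and E2F5†, a repressor partner of p130, fell. E2F1 read 79.8 and 72.4 CPM in control and 115 and 113 in siRAB3IP (0.59 ± 0.08, adjusted p = 0.000495), with both siRAB3IP libraries above both of control, and E2F5 read 16.7 and 18.3 CPM in control and 14.1 and 12.1 in siRAB3IP. The cyclins of S-phase entry went opposite ways. CCNE1 fell, from 27.3 and 26.2 CPM to 21.6 and 15.04 CPM, and CCNE2† rose, from 19.0 and 18.002 CPM to 25.2 and 25.9 CPM. CDC25A, the phosphatase that activates CDK2, rose by 0.36, and CCNA2† was not called at -0.03 ± 0.08. 1 of these 5 calls held when any single library was dropped, and CCNE1, E2F5, CDC25A and CCNE2 no longer passed without at least 1 of control replicates 1 and 2 and siRAB3IP replicates 1 and 2 (adjusted p from 0.0550 to 0.242 there).

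In 3 lists of replication 0 of 16, 5 of 32 and 2 of 9 genes were called, in sum near the 12% of all genes tested. That is below the 18.9% of protein-coding genes that averaged 5 CPM or more, a difference that was not tested. None of the 16 genes of origin licensing was called, with a range of -0.24 to 0.18 and a median of 0.00 on the log2 scale. The largest fall among them was that of the helicase subunit MCM5, at 221 and 204 CPM in control and 183 and 177 in siRAB3IP (adjusted p = 0.0630), and the largest positive value that of the loader CDT1, at 71.5 and 70.4 CPM in control and 78.9 and 81.7 in siRAB3IP. Of 32 fork genes 3 rose and 2 fell. POLE4, a subunit of polymerase epsilon, rose by 0.47, and the CMG helicase members GINS3 and GINS1 by 0.38 and 0.29. The ligase LIG1† fell by 0.34 and the single-strand binder RPA3† by 0.29. In nucleotide supply the subunits of ribonucleotide reductase parted. RRM2, the S-phase subunit, read 203 and 188 CPM in control and 270.3 and 238 in siRAB3IP (0.38 ± 0.09, adjusted p = 0.0115), and RRM2B, the p53-induced subunit, read 49.9 and 53.1 CPM in control and 36.2 and 42.8 in siRAB3IP (-0.38 ± 0.10, adjusted p = 0.0203). The other 7 genes of this list were not called. None of the 7 calls named held in every fit without 1 library, and GINS3, RPA3, POLE4, GINS1, RRM2, RRM2B and LIG1 no longer passed without at least 1 of control replicates 1 and 2 and siRAB3IP replicates 1 and 2 (adjusted p from 0.0525 to 0.201 there). Under a replicate block MCM5 and CDT1 also passed (adjusted p from 0.00128 to 0.0311).

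Genes of mitosis were called in both directions, by small factors. The background was 6.58% higher and 5.38% lower calls in all genes tested. It was 10.5% and 8.4% in protein-coding genes that averaged 5 CPM or more. The kinesin list had 3 of 12 lower (25.0%), 0 higher and a median of -0.17, below that of all genes (-0.01). KIF20A†, a motor of the midzone, read 174 and 179.8 CPM in control and 126 and 133 in siRAB3IP (-0.45 ± 0.08, adjusted p = 0.00202), KIF14 fell by 0.38 and KIF22 by 0.35. Of 24 genes of the spindle checkpoint and the anaphase-promoting complex 5 fell (20.8%) and 1 rose (4.17%). The checkpoint protein MAD2L1† read 159.6 and 142 CPM in control and 127 and 100.3 in siRAB3IP, its target CDC20 186 and 166 CPM in control and 137 and 129 in siRAB3IP, and the complex's subunits ANAPC4 and CDC27† fell by 0.37 and 0.34 while ANAPC13† rose by 0.32. The checkpoint kinase BUB1 changed by -0.30 ± 0.08. The count of lower calls in that list ran from 0 to 5 with 1 library left out, dropping by over 1.5 times without any 1 of control replicates 1 and 2 and siRAB3IP replicates 1 and 2. Around mitotic entry CCNB1, the cyclin of CDK1, read 301 and 269.9 CPM in control and 239.9 and 213 in siRAB3IP, and the phosphatase CDC25C† fell by 0.30, whereas MYBL2, a transcription factor of the late cell cycle, rose to 393 and 405 CPM from 309 and 268 CPM (0.47 ± 0.09, adjusted p = 0.00362). Of 34 kinetochore genes 3 rose and 0 fell, namely MIS12† (0.50), CENPB (0.37) and SKA1 (0.34). This share of higher calls (8.82%) is near the background. In the cohesin and condensin list only CDCA5, the cohesion factor sororin, was called, at 123 and 114 CPM in control and 169 and 164 in siRAB3IP. In cytokinesis the septins SEPTIN2† and SEPTIN11 fell by 0.46 and 0.30. 5 of the 18 calls named held in every fit without 1 library, and KIF22, MAD2L1, CDC20, BUB1, CCNB1, CDC25C, KIF14, ANAPC4, ANAPC13, SKA1, SEPTIN11, CDC27 and CENPB lost the call without at least 1 of control replicates 1 and 2, siRAB3IP replicates 1 and 2 and siCAMSAP1 replicates 1 and 2 (adjusted p from 0.0516 to 0.301 there). Another scaling, filter or tool ended the call of CDC25C and SKA1 (adjusted p up to 0.0557).

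Of 19 genes used as indices of dividing cells, 3 fell, 1 rose and 15 were not called, and the median was -0.03. HMMR†, a spindle protein that also binds hyaluronan, stood apart at 91.8 and 89.0 CPM in control and 56.4 and 47.3 in siRAB3IP (-0.80 ± 0.09, adjusted p = 0.000150), with no overlap of the groups. The other 2 that fell were CCNB1 and BUB1, and the 1 that rose was RRM2. The classical markers were not called. MKI67, which codes for the Ki-67 antigen, read 457 and 535 CPM in control and 541 and 535 in siRAB3IP (0.12 ± 0.09), the topoisomerase TOP2A 838 and 945 CPM in control and 849 and 892 in siRAB3IP (-0.03 ± 0.09), the clamp PCNA 339.8 and 303 CPM in control and 373 and 358 in siRAB3IP (0.19 ± 0.08), and MCM2† 439 and 404 CPM in control and 397 and 384 in siRAB3IP (-0.11 ± 0.08). For MKI67 and TOP2A the libraries of the groups overlapped. The kinases PLK1† (-0.33 ± 0.10, adjusted p = 0.0526), AURKA (-0.20 ± 0.08), AURKB (0.00 ± 0.08) and CDK1 (0.16 ± 0.08), with BIRC5† (0.17 ± 0.09), TYMS† (0.18 ± 0.09), UBE2C (-0.05 ± 0.09), CCNA2† (-0.03 ± 0.08), TPX2 (-0.12 ± 0.08), CENPF (-0.11 ± 0.16) and NUSAP1 (0.01 ± 0.07), complete the list. The plot of proliferation genes by library shows the called and uncalled members side by side. 1 of these 4 calls held when any single library was dropped, and CCNB1, BUB1 and RRM2 lost the call without at least 1 of control replicates 1 and 2 and siRAB3IP replicates 1 and 2 (adjusted p from 0.0516 to 0.239 there). Blocked by replicate number, PCNA, PLK1, AURKA, CDK1 and BIRC5 also passed (adjusted p from 0.000322 to 0.0402).

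**Figure D2:**
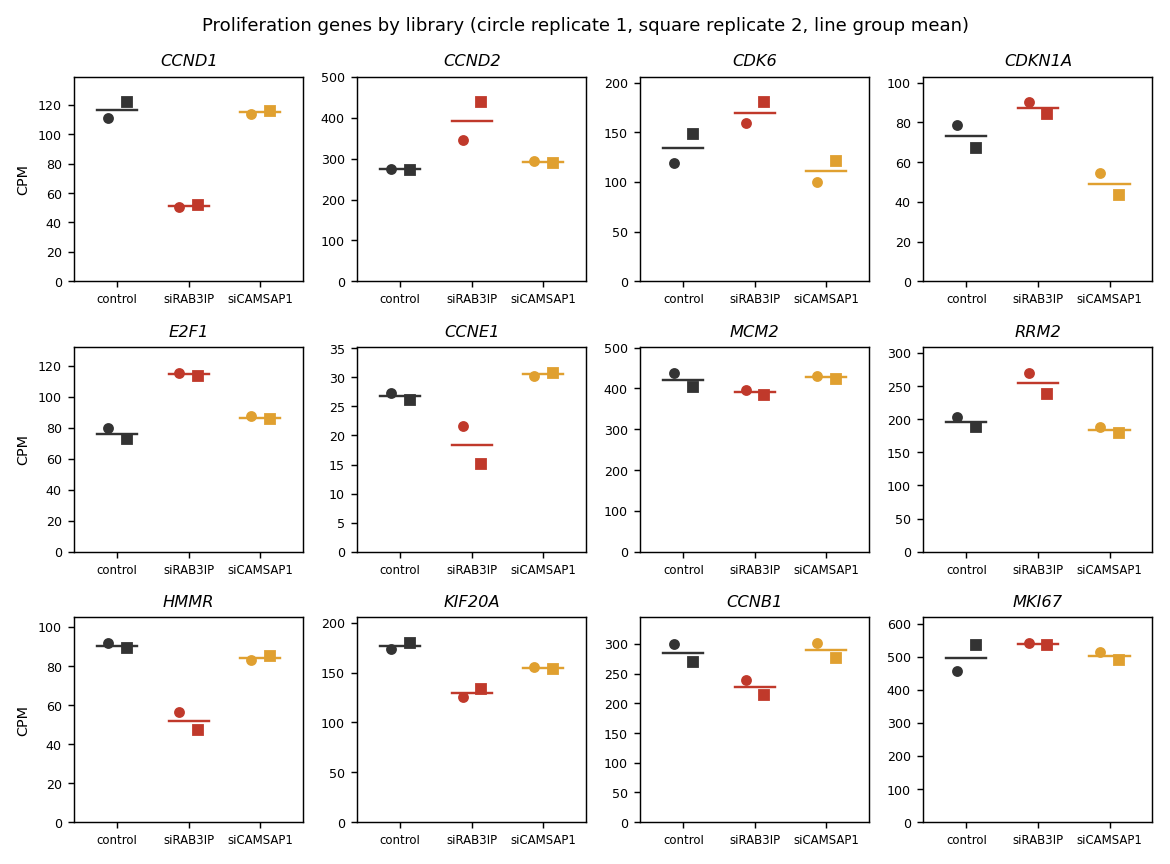
Each panel gives the CPM (linear axis from 0) of 1 gene in the 2 control, 2 siRAB3IP and 2 siCAMSAP1 libraries, circles for replicate 1, squares for replicate 2 and a line at the group mean. CCND1 and HMMR are low in both siRAB3IP libraries and near control in siCAMSAP1, E2F1 is high, and the groups overlap for MKI67.

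The promoter of HMMR is shown because it holds the word of the cell-cycle homology region (CHR), which is found in many genes of late mitosis. Sequences come from RefSeq (GRCh38.p14), which is not the build of the count file. The 30 bases on the plus strand at chr5:163460595-163460624, which begin before the start site, hold the word TTTGAA 2 times, in capitals, the first of them 28 bases before the start.
HMMR: gtggggagaTTTGAATTTGAAaccggtagg
Of 9590 tested genes with a single RefSeq start, 10.3% have this word on either strand in the 300 bases around the start, against 8.49% of the genes called higher and 10.3% of those called lower. In the lists of interest it was present in 9 of 11 mitotic kinesins, 3 of 5 genes of mitotic entry and 5 of 15 of the checkpoint list with such an entry. The words TTTGGCGC, TTTCGCGC and TTTCCCGC, of the type bound by E2F, were present in 6 of 11 licensing and 11 of 21 fork genes and in 4.31% of all. A word is a description of the letters, not of a bound site.

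Genes of growth arrest did not move one way. Of 18 genes of quiescence tested, 2 rose (11.1%) and 4 fell (22.2%), with a median of -0.17. All genes tested had 6.58% higher and 5.38% lower calls. Protein-coding genes that averaged 5 CPM or more had 10.5% and 8.4%. GAS1, an inhibitor of entry into S phase, read 14.6 and 15.1 CPM in control and 7.56 and 9.51 in siRAB3IP (-0.80 ± 0.15, adjusted p = 0.00355), and the atypical cyclin CCNG2 read 20.1 and 24.8 CPM in control and 13.4 and 14.8 in siRAB3IP (-0.67 ± 0.12, adjusted p = 0.00282), whereas CCNG1† read 364 and 373 CPM in control and 449 and 490.4 in siRAB3IP and the factor KLF4 18.8 and 15.5 CPM in control and 25.8 and 22.4 in siRAB3IP. YPEL3† fell by 0.43. Of 28 targets of p53 8 rose (28.6%) and 4 fell (14.3%), with a median of -0.01. The death receptor FAS† read 25.4 and 24.7 CPM in control and 38.8 and 50.8 in siRAB3IP (0.84 ± 0.12, adjusted p = 0.000545), the BH3-only gene PMAIP1 108 and 103 CPM in control and 180.1 and 149.6 in siRAB3IP and GADD45A 17.98 and 16.4 CPM in control and 28.9 and 25.6 in siRAB3IP. SESN1†, an inhibitor of mTORC1, went the other way, at 46.1 and 48.8 CPM in control and 26.8 and 28.1 in siRAB3IP (-0.79 ± 0.08, adjusted p = 0.000113). The count of p53 targets called higher ran from 5 to 8 with 1 library left out, dropping by over 1.5 times without control replicate 2. Within the MYC network MXD1†, an antagonist of MYC, rose by 0.56, the shared partner MAX† by 0.32, and MXI1† fell by 0.27. Dropping libraries singly left 5 of 12 calls in place throughout, and KLF4, YPEL3, MAX, MXI1, GAS1, CCNG1 and MXD1 lost the call without at least 1 of control replicate 2, siRAB3IP replicates 1 and 2 and siCAMSAP1 replicates 1 and 2 (adjusted p from 0.0542 to 0.263 there). A change of scaling, filter or tool took the call from YPEL3 and MXI1 (adjusted p up to 0.0615).

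Of 11 EGFR family genes tested 3 rose (27.3%), and all 3 were ligands. HBEGF read 9.74 and 8.95 CPM in control and 19.0 and 16.8 in siRAB3IP (0.94 ± 0.12, adjusted p = 0.000403), TGFA 1.31 and 1.09 CPM in control and 2.38 and 2.08 in siRAB3IP (adjusted p = 0.0499) and NRG1 7.81 and 8.03 CPM in control and 10.6 and 11.2 in siRAB3IP. Of 27 other receptor genes 3 fell and 0 rose, the TAM receptor MERTK by 0.70, the ephrin receptor EPHB2† by 0.51 and FGFR3 by 0.37, while the median of that list was 0.05. Of 34 MAPK genes 8 rose (23.5%) and 1 fell, with a median of 0.22. For comparison, 6.58% of all genes tested were called higher and 5.38% lower. Among protein-coding genes that averaged 5 CPM or more these shares were 10.5% and 8.4%. The share of receptor genes called lower (11.1%) is near the last of these. The rises were led by genes that ERK signalling induces and by phosphatases that act on MAP kinases. IER3† read 20.1 and 18.2 CPM in control and 37.8 and 39.97 in siRAB3IP (1.02 ± 0.10, adjusted p = 5.75e-05), the AP-1 subunit FOSL1 8.48 and 5.93 CPM in control and 16.4 and 12.3 in siRAB3IP, DUSP8 5.08 and 5.44 CPM in control and 10.7 and 10.7 in siRAB3IP (1.02 ± 0.13, adjusted p = 0.000417), DUSP5 7.01 and 5.37 CPM in control and 11.6 and 11.2 in siRAB3IP and DUSP10 5.48 and 5.20 CPM in control and 8.96 and 7.43 in siRAB3IP. In all 5 the siRAB3IP libraries lay above both control libraries. The count of higher MAPK calls ran from 4 to 8 with 1 library left out, dropping by over 1.5 times without siRAB3IP replicate 1. 5 of the 11 calls named held in every fit without 1 library, and the call of TGFA, NRG1, FGFR3, MERTK, DUSP10 and EPHB2 ended without at least 1 of control replicates 1 and 2 and siRAB3IP replicates 1 and 2 (adjusted p from 0.0619 to 0.222 there). Another scaling, filter or tool ended the call of TGFA (adjusted p up to 0.0654).

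In the PI3K and mTOR list 2 of 30 genes rose and 3 fell. DEPTOR†, an inhibitor of mTOR, read 4.87 and 5.30 CPM in control and 2.46 and 2.42 in siRAB3IP (-1.06 ± 0.18, adjusted p = 0.00260). DDIT4†, another inhibitor, fell by 0.41 and MTOR† itself by 0.25, while the translation repressor EIF4EBP2 rose by 0.38 and the AKT phosphatase PHLPP2† by 0.32. The polyamine list, of synthesis and breakdown, had 5 of 11 genes lower (45.5%), 0 higher and a median of -0.34. Lower calls made up 5.38% of all genes tested. ODC1, the rate-limiting decarboxylase, read 324 and 259 CPM in control and 158 and 123 in siRAB3IP (-1.06 ± 0.13, adjusted p = 0.000666), with no overlap of the groups. SAT1, which starts polyamine breakdown, read 798 and 823 CPM in control and 504 and 432 in siRAB3IP (-0.79 ± 0.09, adjusted p = 0.000145). The synthesis enzymes AMD1, SRM and SMS were not called, with AMD1 at 0.23 ± 0.09, SRM at 0.32 ± 0.12 and SMS at 0.00 ± 0.08. The oxidase PAOX†, the antizyme inhibitor AZIN2 and the antizyme OAZ2† fell by 0.71, 0.68 and 0.34. The count of lower polyamine calls ran from 2 to 5 with 1 library left out, dropping by over 1.5 times without any 1 of control replicate 1 and siRAB3IP replicates 1 and 2. 3 of these 10 calls held when any single library was dropped, and the call of DDIT4, MTOR, PHLPP2, AZIN2, OAZ2, PAOX and EIF4EBP2 ended without at least 1 of control replicates 1 and 2, siRAB3IP replicates 1 and 2 and siCAMSAP1 replicates 1 and 2 (adjusted p from 0.0514 to 0.303 there). Under other scalings, filters or tools the adjusted p missed the threshold for MTOR and AZIN2 (adjusted p up to 0.0748), and with the replicate number as a block AMD1 and SRM also passed (adjusted p from 0.000571 to 0.00183).

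**Figure D3:**
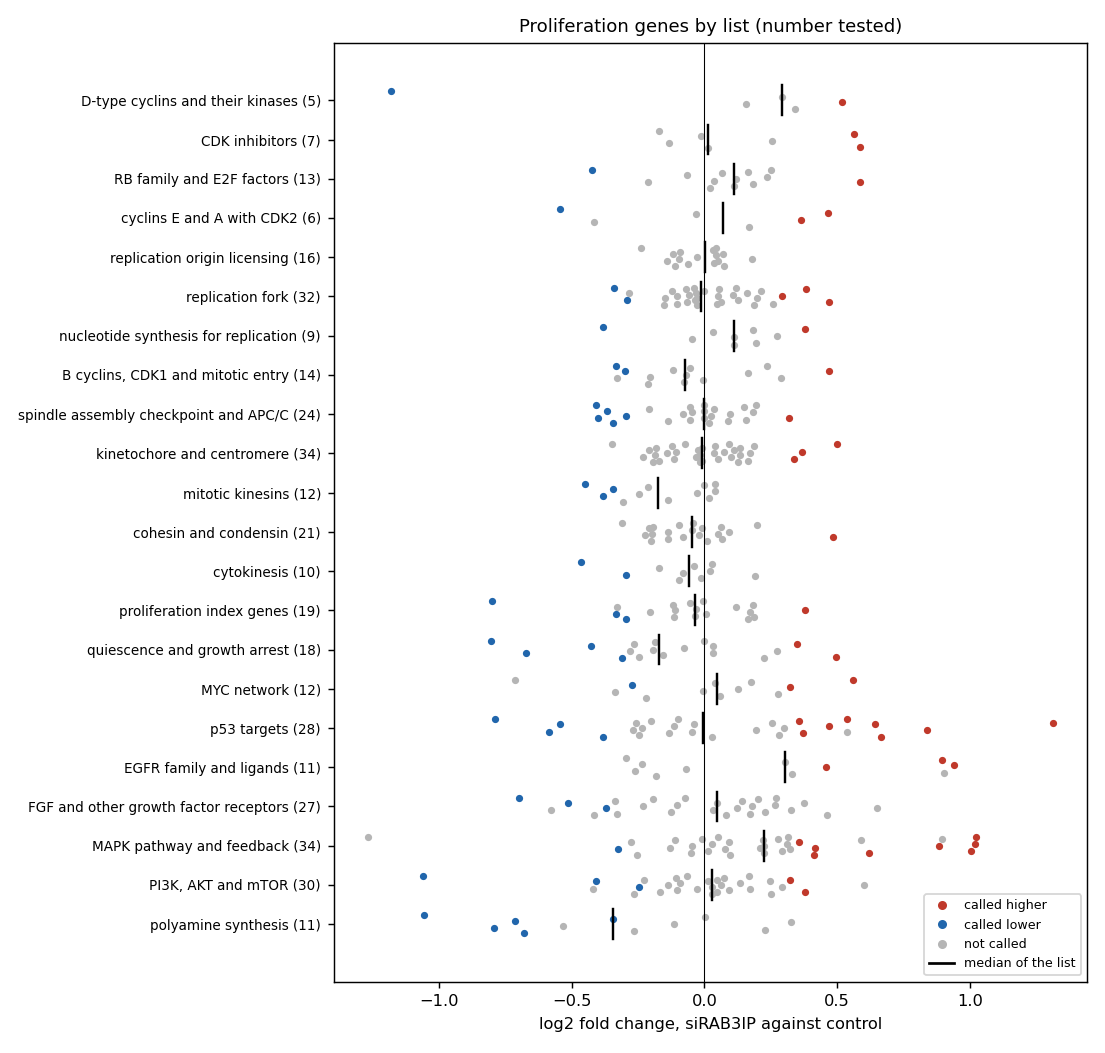
Each point is a tested member of 1 of the 22 proliferation lists, by its log2 fold change, siRAB3IP against control, red where called higher, blue where called lower and grey where not called, with the list's median as a black line. The licensing list has no called member, the polyamine list has 5 called lower, and the MAPK list 8 called higher.

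Of 22 genes of the U2 particle and the branch point, 2 rose and 2 fell, with PHF5A at 49.6 and 43.5 CPM in control and 65.3 and 61.6 in siRAB3IP and the helicase DDX46† at 0.34, U2SURP† at -0.34 and the branch-point protein SF1 at -0.25. None of the 7 tested Sm ring genes was called, and all 7 lay between 0.03 and 0.17. SNRPB†, the most abundant of them named, read 526 and 407 CPM in control and 524 and 458 in siRAB3IP, its groups overlapping. In the tri-snRNP list TXNL4A and CD2BP2, which meet in the U5 particle, rose by 0.38 and 0.32, 2 of 24 genes. Among 26 genes of the Prp19 complex and the catalytic steps CDC40 alone was called, at 54.5 and 53.8 CPM in control and 39.3 and 39.97 in siRAB3IP (-0.45 ± 0.08, adjusted p = 0.00262). None of 10 minor spliceosome genes was called, and the range ran from -0.25 to -0.02, with ZCRB1 lowest (-0.25 ± 0.08, adjusted p = 0.0634). 1 of 7 calls outlasted the loss of each library in turn, and the call of SF1, U2SURP, TXNL4A, CD2BP2, PHF5A and DDX46 ended without at least 1 of control replicates 1 and 2, siRAB3IP replicates 1 and 2 and siCAMSAP1 replicates 1 and 2 (adjusted p from 0.0552 to 0.212 there). A change of scaling, filter or tool took the call from SF1 (adjusted p up to 0.0697), and under a replicate block ZCRB1 also passed (adjusted p = 0.00578).

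Among regulators of splicing HNRNPF had the largest fall. HNRNPF (hg19 chr10:43881065-43904614), which binds G-tracts beside exons, read 494 and 459.7 CPM in control and 288 and 259 in siRAB3IP (-0.80 ± 0.09, adjusted p = 0.000107), against 527 and 489 CPM in siCAMSAP1. It was among the 12 largest falls in CPM of all genes. HNRNPK† fell by 0.27, and PCBP4† and HNRNPUL2† rose by 0.64 and 0.44, which gives 2 higher and 2 lower of 29. Of 26 SR proteins and their kinases 2 fell. SRSF12, a neuronal and testis SR protein, read 16.2 and 14.7 CPM in control and 10.1 and 9.56 in siRAB3IP (-0.65 ± 0.12, adjusted p = 0.00339), and TRA2A fell by 0.30. Among 29 tested factors that set splicing by cell type KHDRBS3 rose, from 1.63 and 1.72 CPM to 3.12 and 3.57 CPM, and the muscleblind MBNL3, the neuronal PTBP2 and the apoptosis regulator RBM5† fell by 0.41, 0.37 and 0.31. In the exon junction complex PNN† alone was called (0.27). 3 of the 11 calls named held in every fit without 1 library, and HNRNPK, HNRNPUL2, TRA2A, PNN, MBNL3, PTBP2, RBM5 and KHDRBS3 no longer passed without at least 1 of control replicates 1 and 2, siRAB3IP replicates 1 and 2 and siCAMSAP1 replicates 1 and 2 (adjusted p from 0.0609 to 0.273 there). Another scaling, filter or tool ended the call of HNRNPK and PNN (adjusted p up to 0.0681).

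In the capping list the activator of the cap methyltransferase, RAMAC†, fell, from 20.04 and 18.9 CPM to 13.3 and 12.3 CPM (-0.60 ± 0.11, adjusted p = 0.00328), 1 of 9 genes. None of 22 cleavage and polyadenylation genes was called, with values from -0.26 to 0.21. The largest of them were those of CPSF1† (-0.26 ± 0.09, adjusted p = 0.0892) and FIP1L1† (-0.22 ± 0.08, adjusted p = 0.0994). INTS7 was the 1 called of 15 Integrator genes (0.32), and DDX39A, a helicase of export, the 1 called of 22 export genes, at 102 and 83.6 CPM in control and 135 and 123 in siRAB3IP. For m6A, the methyl mark on adenosine, 3 of 18 genes fell and 1 rose. VIRMA, the scaffold of the methyltransferase complex, read 96.8 and 98.2 CPM in control and 58.0 and 54.3 in siRAB3IP (-0.80 ± 0.08, adjusted p = 5.75e-05), with all 4 libraries apart by group. The readers YTHDC2 and IGF2BP3† fell by 0.38 and 0.34, and the reader YTHDF1 rose by 0.34. The editing enzyme ADAR fell, from 376 and 371 CPM to 311 and 296 CPM (-0.30 ± 0.08, adjusted p = 0.0277). 2 of these 8 calls held when any single library was dropped, and INTS7, ADAR, DDX39A, YTHDC2, IGF2BP3 and YTHDF1 no longer passed without at least 1 of control replicates 1 and 2 and siRAB3IP replicates 1 and 2 (adjusted p from 0.0501 to 0.192 there). Blocked by replicate number, CPSF1 and FIP1L1 also passed (adjusted p from 0.00571 to 0.0104).

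In mRNA decay, 4 of 21 deadenylation and tail-binding genes rose and 1 fell. The poly(A)-binding proteins PABPC1 and PABPC4† rose by 0.28 and 0.34, the circadian deadenylase-like NOCT by 0.54 and the deadenylase CNOT6 by 0.29, while PARN fell by 0.28. In decapping LSM14B read 32.6 and 32.5 CPM in control and 23.7 and 22.5 in siRAB3IP (-0.50 ± 0.09, adjusted p = 0.00300) and DCP1B fell by 0.46, 2 of 13 genes. None of 20 exosome genes was called, and the values ran from -0.28 to 0.19, with EXOSC6 lowest (-0.28 ± 0.10). SMG5, of nonsense-mediated decay, rose, at 198 and 183 CPM in control and 265 and 244 in siRAB3IP, and RC3H2, which degrades mRNAs with a stem-loop, rose by 0.31. Of 11 genes that make or use small RNAs, siRNA included, DICER1† alone was called (0.30). In ribosome biogenesis the polymerase I factor RRN3 read 119 and 112 CPM in control and 169 and 156 in siRAB3IP (0.49 ± 0.08, adjusted p = 0.00145) and NOLC1 rose by 0.35, 2 of 32. The count of higher calls in that list ran from 1 to 7 with 1 library left out, dropping by over 1.5 times without any 1 of control replicate 2 and siRAB3IP replicate 1, and rising by as much without control replicate 1. Dropping libraries singly left 2 of 12 calls in place throughout, and PABPC1, CNOT6, PARN, RC3H2, DICER1, NOCT, DCP1B, NOLC1, PABPC4 and SMG5 no longer passed without at least 1 of control replicates 1 and 2 and siRAB3IP replicates 1 and 2 (adjusted p from 0.0532 to 0.255 there). A change of scaling, filter or tool took the call from PABPC1 (adjusted p up to 0.0540), and blocked by replicate number, EXOSC6 also passed (adjusted p = 0.00504).

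Set side by side, calls made up a larger share of the proliferation lists than of the mRNA processing lists. Of 375 tested proliferation genes 41 were called higher and 39 lower (21.3%), and of 408 mRNA processing genes 20 and 19 (9.56%). Among all 10830 protein-coding genes that averaged 5 CPM or more the share was 18.9%, with 1132 higher and 910 lower. The median size of the log2 fold change, sign aside, was 0.18 in the proliferation lists, 0.11 in the mRNA processing lists and 0.16 in those protein-coding genes. Of the called genes, 7 of the proliferation lists and 0 of the mRNA processing lists reached 2-fold, and 65 of the protein-coding genes did. The share of the proliferation lists is near the background, and the difference between the areas was not tested. The plot of the mRNA processing lists shows medians near 0 with HNRNPF, VIRMA, SRSF12 and RAMAC on the left.

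**Figure D4:**
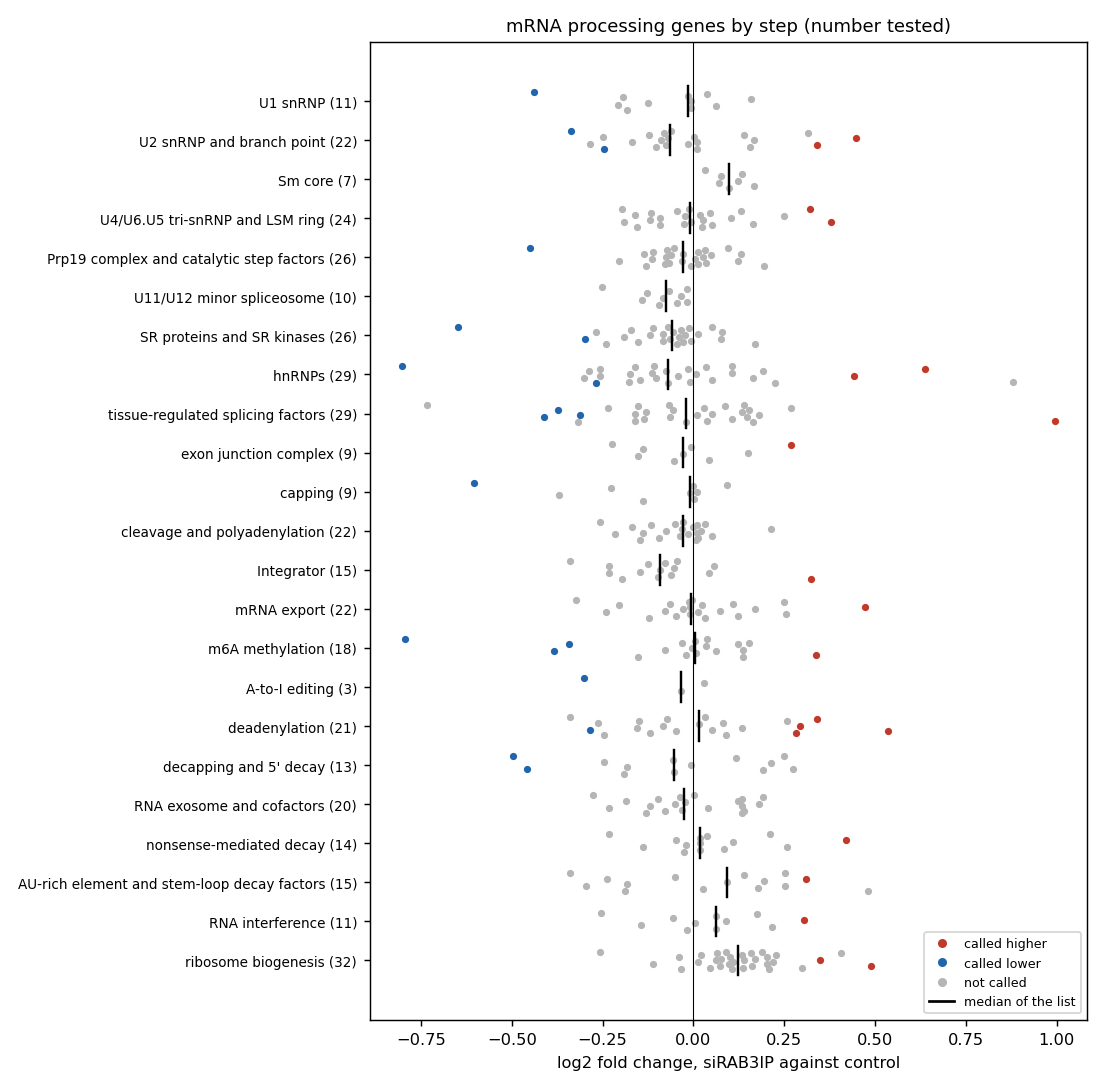
Each point is a tested member of 1 of the 23 mRNA processing lists, by its log2 fold change, siRAB3IP against control, red where called higher, blue where called lower and grey where not called, with the list's median as a black line. All medians lie between -0.09 and 0.12, and the lists of the Sm core, 3' end formation, the minor spliceosome and the exosome have no called member.

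The chemokine and cytokine genes that passed the test were higher in siRAB3IP. Of 11 chemokine genes tested 5 rose (45.5%, against 6.58% of all genes tested) and 0 fell, all from low levels. CCL20, which attracts dendritic and T cells, read 1.44 and 0.605 CPM in control and 8.09 and 4.63 in siRAB3IP (2.65 ± 0.35, adjusted p = 0.000930), and CXCL8, which attracts neutrophils, 3.42 and 2.15 CPM in control and 32.6 and 12.8 in siRAB3IP (3.03 ± 0.56, adjusted p = 0.0385). The siRAB3IP libraries disagreed by more than 2-fold for CXCL8, yet both lay above both controls. CXCL10, CXCL1 and CXCL2 rose by 2.47, 1.90 and 1.64 and stayed at low levels. Of 22 cytokine genes 4 rose. IL32† read 16.2 and 14.3 CPM in control and 45.4 and 44.6 in siRAB3IP (1.56 ± 0.09) and 62.9 and 63.6 CPM in siCAMSAP1. The others were the colony-stimulating factor CSF1, at 15.2 and 15.9 CPM in control and 21.8 and 24.1 in siRAB3IP, IL12A†, at 2.25 and 2.01 CPM in control and 4.13 and 3.83 in siRAB3IP, and TNF, at 0.589 and 0.218 CPM in control and 1.64 and 1.28 in siRAB3IP. 6 of the 9 calls named held in every fit without 1 library, and CXCL8, IL12A and TNF lost the call without at least 1 of control replicates 1 and 2, siRAB3IP replicates 1 and 2 and siCAMSAP1 replicates 1 and 2 (adjusted p from 0.0613 to 0.316 there). Another scaling, filter or tool ended the call of CXCL8 (adjusted p up to 0.173).

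The promoters of 3 genes with a kB-like word, the type of word NF-kB binds, are shown because chemokines and NF-kB genes rose side by side. The words searched were GGGNNTTCC and GGAATTTCC on either strand, and the match is in capitals, read 5' to 3' along the gene. RefSeq places these 30 bases at chr14:35404811-35404840 (minus strand), chr4:73740468-73740497 (plus) and chr2:227813753-227813782 (plus) of GRCh38.p14, with the match 81, 91 and 79 bases before the start.
NFKBIA: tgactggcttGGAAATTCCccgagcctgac
CXCL8: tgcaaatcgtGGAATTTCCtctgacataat
CCL20: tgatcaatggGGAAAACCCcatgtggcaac
Such a word was present in 6 of 8 chemokine genes and 6 of 10 NF-kB subunit and inhibitor genes with a single RefSeq start. It was present in 8.8% of all tested genes with such an entry, in 11.6% of those called higher and in 7.59% of those called lower.

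Among developmental ligands BMP2 rose and BMP4 fell. BMP4 read 11.3 and 14.01 CPM in control and 5.79 and 7.70 in siRAB3IP (-0.91 ± 0.16, adjusted p = 0.00307), so that the higher siRAB3IP library lay below both controls, while BMP2 read 26.9 and 23.8 CPM in control and 84.0 and 70.9 in siRAB3IP (1.61 ± 0.10, adjusted p = 1.75e-06) and 24.8 and 22.8 CPM in siCAMSAP1. The activin subunit INHBA rose from 0.134 and 0.315 CPM to 0.952 and 1.305 CPM. Of 16 antagonists and binders of these ligands 3 rose and 3 fell. FSTL3, which binds activin, read 9.10 and 8.11 CPM in control and 20.1 and 18.9 in siRAB3IP (1.18 ± 0.12, adjusted p = 9.06e-05), and the BMP binders NBL1† and TWSG1 rose by 0.84 and 0.48, while the latent TGF-beta binders LTBP3 and LTBP4 fell by 0.48 and 0.69. For WNT, the secreted inhibitor DKK1 read 2.94 and 2.32 CPM in control and 6.93 and 5.38 in siRAB3IP (1.23 ± 0.20, adjusted p = 0.00153) and the ligand WNT11† fell by 0.80, 2 of 18 genes. Of 27 FGF, VEGF, PDGF and IGF ligands and adrenomedullin 4 rose and 0 fell. ADM read 20.1 and 17.4 CPM in control and 37.4 and 34.6 in siRAB3IP (0.95 ± 0.11, adjusted p = 0.000148), VEGFA† 32.2 and 33.9 CPM in control and 44.3 and 43.2 in siRAB3IP and FGF2† 18.7 and 18.4 CPM in control and 23.4 and 23.4 in siRAB3IP, and FGF1 rose from 0.107 and 0.266 CPM to 0.714 and 1.70 CPM. The matricellular THBS2 rose by 1.42, and IGFBP6, which binds IGF2, fell by 0.84. Among 32 contact and guidance signals EFNB2 and NTN1 rose by 0.35 and 0.34 and SEMA4A, EFNB3 and EFNA3† fell by 0.98, 0.88 and 0.85. The count of lower guidance calls ran from 1 to 5 with 1 library left out, dropping by over 1.5 times without any 1 of control replicate 2 and siRAB3IP replicates 1 and 2, and rising by as much without control replicate 1. 6 of these 21 calls held when any single library was dropped, and INHBA, WNT11, FGF2, EFNB2, SEMA4A, EFNA3, NBL1, LTBP4, IGFBP6, NTN1, EFNB3, VEGFA, TWSG1, LTBP3 and FGF1 lost the call without at least 1 of control replicates 1 and 2, siRAB3IP replicates 1 and 2 and siCAMSAP1 replicates 1 and 2 (adjusted p from 0.0504 to 0.338 there). Under other scalings, filters or tools the adjusted p missed the threshold for SEMA4A and EFNA3 (adjusted p up to 0.0788).

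Genes of vesicle release were called higher in 6 of 26 cases and lower in 0, with a median of 0.11. That is 23.1% called higher, against 6.58% of all genes tested and 10.5% of protein-coding genes that averaged 5 CPM or more. RAB27B†, which docks exosome-bearing bodies at the membrane, read 4.15 and 4.50 CPM in control and 10.2 and 10.7 in siRAB3IP (1.27 ± 0.15, adjusted p = 0.000265), against 3.81 and 3.12 CPM in siCAMSAP1. The syndecans SDC4 and SDC1, heparan sulphate carriers that act in exosome budding, read 49.8 and 44.98 CPM in control and 102 and 87.3 in siRAB3IP and 19.1 and 17.9 CPM in control and 30.4 and 29.3 in siRAB3IP. CD63†, a tetraspanin of exosomes, rose by 0.36 and HGS†, which sorts cargo, by 0.32. Taken as 1 set, the 192 secreted-signal and vesicle genes held 28 higher and 9 lower calls (19.3%), with 14 called members at 2-fold or more. The share of calls was 12% in all genes tested and 18.9% in protein-coding genes that averaged 5 CPM or more, so that of the set is near the latter. The count of vesicle genes called higher ran from 3 to 5 with 1 library left out, dropping by over 1.5 times without siRAB3IP replicate 2. 3 of 5 calls outlasted the loss of each library in turn, and HGS and CD63 lost the call without at least 1 of control replicate 2 and siRAB3IP replicates 1 and 2 (adjusted p from 0.0820 to 0.319 there). A change of scaling, filter or tool took the call from HGS (adjusted p up to 0.0569).

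Regulators of NF-kB rose, with 12 of 22 called higher (54.5%) and 0 lower and a median of 0.41. Higher calls made up 6.58% of all genes tested and 10.5% of protein-coding genes that averaged 5 CPM or more. NFKBIA, the inhibitor that the factor itself induces, read 41.3 and 37.9 CPM in control and 91.1 and 66.9 in siRAB3IP (0.998 ± 0.12, adjusted p = 0.000306), the subunit NFKB2 23.6 and 20.6 CPM in control and 45.8 and 35.4 in siRAB3IP (0.88 ± 0.12, adjusted p = 0.000495), and the deubiquitinase TNFAIP3† 6.85 and 6.27 CPM in control and 18.7 and 11.5 in siRAB3IP (1.21 ± 0.20, adjusted p = 0.00228). siCAMSAP1 stood at 72.1 and 72.1 CPM for NFKBIA and 39.98 and 38.4 CPM for NFKB2, and neither gene was called between the knockdowns. The adaptor TRAF1 rose by 1.06 and RELB by 1.59. Of 32 genes of RNA sensing and interferon signalling 7 rose (21.9%) and 1 fell. IFIT3 read 3.18 and 3.29 CPM in control and 5.39 and 7.56 in siRAB3IP, IFIT2 1.18 and 1.89 CPM in control and 3.04 and 4.23 in siRAB3IP, IFI44 0.401 and 0.581 CPM in control and 1.51 and 3.67 in siRAB3IP and OAS1† 0.0268 and 0.0726 CPM in control and 0.370 and 0.559 in siRAB3IP, while IFIT1 read 6.98 and 8.25 CPM in control and 3.83 and 3.81 in siRAB3IP (-0.996 ± 0.16, adjusted p = 0.00147). In both control libraries OAS1 lay at or under the floor of 3 fragments (0.0757 to 0.0803 CPM before the TMM correction). Its call, 1 of the 7, could therefore not have been a lower one. The IFIT genes are neighbours on chromosome 10 and did not move together. The count of NF-kB regulators called higher ran from 7 to 12 with 1 library left out, dropping by over 1.5 times without siRAB3IP replicate 1. The count of interferon genes called higher ran from 2 to 7 with 1 library left out, dropping by over 1.5 times without siRAB3IP replicate 2. 6 of the 10 calls named held in every fit without 1 library, and the call of IFIT2, IFI44, OAS1 and IFIT3 ended without at least 1 of control replicates 1 and 2 and siRAB3IP replicates 1 and 2 (adjusted p from 0.0575 to 0.158 there).

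**Figure D5:**
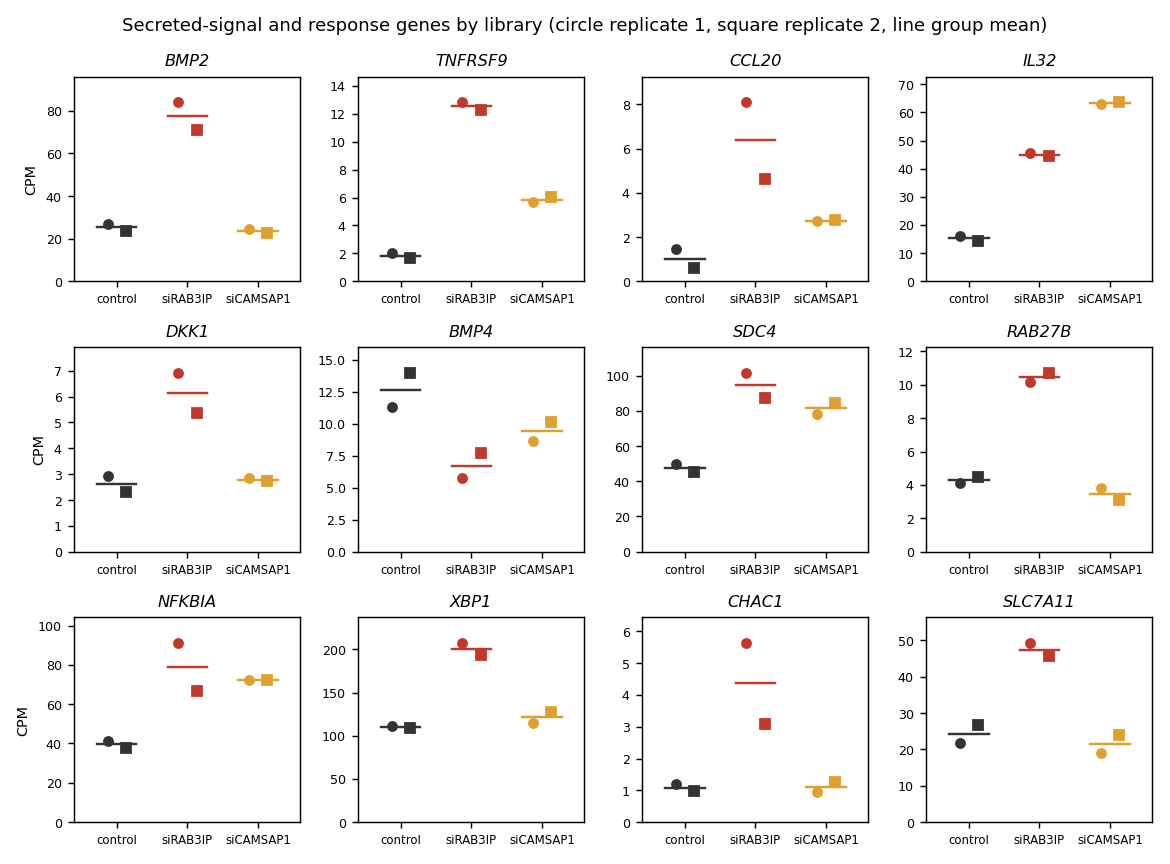
Each panel gives the CPM (linear axis from 0) of 1 gene in the 2 control, 2 siRAB3IP and 2 siCAMSAP1 libraries, circles for replicate 1, squares for replicate 2 and a line at the group mean. BMP2, DKK1, RAB27B, XBP1, CHAC1 and SLC7A11 are high in siRAB3IP alone, IL32 is higher in siCAMSAP1, and BMP4 is lower in siRAB3IP than in control.

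Genes of the integrated stress response and of the endoplasmic reticulum were called higher far more often than lower. Of 28 ATF4 and amino acid response genes 12 rose and 1 fell. CHAC1, which breaks glutathione down, read 1.204 and 0.968 CPM in control and 5.63 and 3.09 in siRAB3IP (2.01 ± 0.30, adjusted p = 0.000960), SLC7A11†, the cystine importer, 21.7 and 26.7 CPM in control and 49.3 and 45.7 in siRAB3IP and the secreted STC2 14.3 and 14.8 CPM in control and 29.9 and 30.2 in siRAB3IP. PPP1R15A, which restores translation, read 76.4 and 62.8 CPM in control and 168 and 141 in siRAB3IP, and ATF3 44.3 and 38.2 CPM in control and 86.9 and 68.5 in siRAB3IP. In all 5 the groups did not overlap, and siCAMSAP1 read 0.954 and 1.27 CPM for CHAC1 and 19.1 and 24.1 CPM for SLC7A11. The list of the unfolded protein response, by which cells raise their folding capacity, had 13 of 24 genes higher and 0 lower, with a median of 0.26. The factor XBP1 read 111 and 109 CPM in control and 207 and 193 in siRAB3IP (0.86 ± 0.08, adjusted p = 4.84e-05), the chaperone HYOU1† 101 and 102 CPM in control and 143 and 157 in siRAB3IP, EDEM1† 59.1 and 61.4 CPM in control and 88.3 and 92.0 in siRAB3IP and HSPA5, the main chaperone of the compartment, 80.2 and 82.7 CPM in control and 121 and 106 in siRAB3IP. CALR† and CANX†, which fold glycoproteins, were among the 12 largest rises in CPM, at 700.3 and 659.6 CPM in control and 911 and 956 in siRAB3IP and 1116 and 1144 CPM in control and 1371 and 1387 in siRAB3IP. Of 25 regulators of apoptosis 5 rose and 1 fell. The BH3-only gene BMF† read 19.3 and 25.7 CPM in control and 7.96 and 10.8 in siRAB3IP (-1.27 ± 0.16, adjusted p = 0.000481), and BID, BCL2L2† and CASP8 rose by 0.55, 0.34 and 0.31. Over the 131 response genes together 49 were higher and 3 lower (39.7%), against 18.9% called among protein-coding genes that averaged 5 CPM or more. The count of unfolded protein response genes called higher ran from 6 to 11 with 1 library left out, dropping by over 1.5 times without any 1 of control replicate 2 and siRAB3IP replicates 1 and 2. The count of apoptosis genes called higher ran from 1 to 4 with 1 library left out, dropping by over 1.5 times without any 1 of control replicates 1 and 2 and siRAB3IP replicates 1 and 2. 10 of these 15 calls held when any single library was dropped, and the call of CANX, BCL2L2, CASP8, HSPA5 and BID ended without at least 1 of control replicates 1 and 2, siRAB3IP replicates 1 and 2 and siCAMSAP1 replicates 1 and 2 (adjusted p from 0.0504 to 0.253 there). Under other scalings, filters or tools the adjusted p missed the threshold for CANX and BCL2L2 (adjusted p up to 0.0626).

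The promoter of CHAC1 is shown for the word TGATGNAA, a type that ATF4 binds with its partners. RefSeq places the 30 bases at chr15:40953251-40953280 of GRCh38.p14, plus strand, and the match, in capitals, lies on the other strand, 209 bases before the start.
CHAC1: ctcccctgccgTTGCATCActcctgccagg
The word was present in 2 of 14 genes of the ATF4 list with a single RefSeq start, in 1.71% of all such genes, in 2.32% of those called higher and in 1.13% of those called lower.

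Against siCAMSAP1, which shares the line, the reagent and the time, siRAB3IP differed in 2076 of 22331 genes (9.3%). Higher calls numbered 1148 and lower calls 928. Both comparisons use the same siRAB3IP libraries, so a gene's values in them are not independent. The fall of CCND1† (-1.16 against siCAMSAP1, adjusted p = 4.24e-06), ODC1 (-1.23, adjusted p = 0.000329), HNRNPF (-0.89, adjusted p = 6.47e-05), VIRMA (-0.80, adjusted p = 6.47e-05) and HMMR† (-0.70, adjusted p = 0.000395) was called in this comparison too. So were the rises of BMP2 (1.70), E2F1 (0.40), DKK1 (1.147), RAB27B† (1.59) and CHAC1 (1.97). The NF-kB subunit genes RELB and NFKB2 were not, with RELB at 0.05 and NFKB2 at 0.05 against siCAMSAP1, and IL32† was lower than there (-0.49, adjusted p = 0.00303). The direct count fell to 964, 614, 826 and 1068 without siRAB3IP replicate 1, siRAB3IP replicate 2, siCAMSAP1 replicate 1 and siCAMSAP1 replicate 2.

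By gene type, protein-coding genes were called higher in 1333 and lower in 1056 of 14661 cases. Long intergenic RNAs were split evenly, 38 against 35 of 1241, and antisense genes were called lower more often than higher, 50 against 13 of 2005. When protein-coding genes that averaged 5 CPM or more were cut into 4 classes by abundance, the lowest class had 181 rises and 292 falls of 2708 genes, and the highest class 369 and 170 of 2708. The authors' deposited table lists 2192 genes for siRAB3IP, 1306 higher and 886 lower, of which 1928 (88.0%) were called here in the same direction and 0 in the other. It holds genes past its threshold only, and 72.2% of the genes called here are in it.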

How the data were processed

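STAR, DESeq2, featureCounts and the hg19 build are listed in the submitters' processing notes, with no role given for each. Per the file headers, featureCounts 1.6.0 took primary alignments with both ends mapped and no strand setting. The deposited counts are whole numbers per gene, of which 63677 are listed. The deposited signal columns are counts the authors scaled by library, and served only to tie table names to count columns. The deposited log2 fold changes and adjusted p-values are the authors' own, and only the sign and presence of genes in that table were used.

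Gene-wise tests used edgeR 4.0.16 (R 4.3.3), with TMM scaling, filterByExpr, a robust quasi-likelihood fit of 3 groups of 2 libraries, Benjamini-Hochberg adjustment over 22331 genes, and calls at an adjusted p under 0.05. The script was tested on simulated counts, where false calls were more frequent than the threshold names and most small changes were missed, so a gene not called is not shown to be unchanged. SE in the text is a standard error. Same-numbered libraries deviated together (r = 0.455, 0.540 and 0.451 over 11784 genes), so a replicate block, numbered as in the deposited tables, was an alternative, beside other scalings and filters, DESeq2 1.42.0, limma-voom 3.58.1, a minimum fold of 1.2, the grouping by titles and leaving out each library.

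The members, gene lists and rules were chosen with earlier results of these data known. Named genes were the host genes, the 12 largest shifts in CPM and 20 steepest log2 changes in each direction with no overlap of groups (the latter at a mean of at least 5 CPM), up to 5 called and 3 abundant uncalled members of each list, and all index genes, D-type cyclins, their kinases and CDK inhibitors. Symbols were matched for 52553 of the gene identifiers. Promoter words were searched in 300 bases (250 before the start and 50 after) for genes with 1 RefSeq start. Some genes the rule names are left out for length, and cell markers, genes near RAB3IP and a few of other groups were named after their values were seen. A result on 1 item withheld for evaluation is not reported here.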

Additional observations from a re-analysis of the deposited data

How the results depend on the processing

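Depth was alike in all libraries, and a gene at the floor of 3 fragments (0.0757 to 0.0803 CPM) cannot show a fall. Against a minimum fold of 1.2 the genes called fell to 702 against control and 520 against siCAMSAP1, and 106 of the 234 called genes named kept the call. With the replicate number as a block the counts rose to 5590 and 4829, no called gene named was lost and 18 of 35 uncalled ones passed. Beyond these the block changed no call of a gene named, but it moved 82 of 130 counts per list by over 1.5 times, 82 upward and 0 downward. Leaving out a library moved 83 of those counts that far in at least 1 fit, 21 upward and 69 downward. Without each library in turn the counts ran from 1014 to 2534 against control and from 614 to 2515 against siCAMSAP1, lowest without siRAB3IP replicate 2. RLE and upper-quartile scaling, no filter, a mean of at least 5 CPM, the 4 libraries alone (against control only), DESeq2, limma-voom and, added after seeing the data, a fit without robust estimation gave counts within 1.5 times of 2671 and 2076, with 1 to 14 of the called genes named that were tested lost under each. The median log2 fold change of all genes stayed between -0.04 and 0.00 in these scalings and filters.

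Grouped by sample titles, 0 genes were called in either comparison. By construction that grouping sets control replicate 1 with siRAB3IP replicate 1 against siCAMSAP1 replicate 1 with control replicate 2. The sign of 227 of the 234 called genes named then turned, none of them called. For genes higher in siRAB3IP the log2 fold changes by title were LCP1 -0.47, ITGAM -0.65, HBA2 -1.15, VWF -0.25, 7SK -0.31, RNU1-1 -0.057, LINC02154 -1.21, PCLO -0.88, OSTM1 -0.28, SPOCK1 -0.58, OLFM1 -1.35, IL31RA -0.28, IL6R -0.70, SHISAL1 -0.26, GADD45B -0.68, RPLP0P2 -0.87, FTL -0.081, EEF2 -0.15, TMBIM6 -0.19, RPS24 -0.27, RPS19 -0.26, RAB3IL1 -0.0078, PTPRR -1.06, PTPRB -0.0024, BEST3 -0.45, CCND2 -0.13, CDKN2B -0.21, CDKN2D -0.36, E2F1 -0.29, CCNE2 -0.32, CDC25A -0.20, POLE4 -0.34, GINS3 -0.20, GINS1 -0.24, RRM2 -0.33, ANAPC13 -0.15, MYBL2 -0.27, MIS12 -0.29, CENPB -0.12, SKA1 -0.26, CDCA5 -0.25, CCNG1 -0.21, KLF4 -0.29, FAS -0.26, PMAIP1 -0.51, GADD45A -0.43, MXD1 -0.22, MAX -0.17, HBEGF -0.46, TGFA -0.63, NRG1 -0.20, IER3 -0.27, FOSL1 -0.64, DUSP8 -0.14, DUSP5 -0.27, DUSP10 -0.53, EIF4EBP2 -0.29, PHLPP2 -0.12, PHF5A -0.18, DDX46 -0.22, TXNL4A -0.28, CD2BP2 -0.12, PCBP4 -0.18, HNRNPUL2 -0.18, KHDRBS3 -0.56, PNN -0.22, INTS7 -0.19, DDX39A -0.32, YTHDF1 -0.12, PABPC1 -0.019, PABPC4 -0.087, NOCT -0.21, CNOT6 -0.21, SMG5 -0.25, RC3H2 -0.22, DICER1 -0.089, RRN3 -0.27, NOLC1 -0.32, CCL20 -1.53, CXCL8 -2.23, CXCL10 -1.04, CXCL1 -0.80, CXCL2 -0.98, IL12A -0.71, TNF -1.14, BMP2 -1.19, INHBA -1.12, FSTL3 -0.16, NBL1 -0.43, TWSG1 -0.25, DKK1 -0.94, ADM -0.34, VEGFA -0.065, FGF2 -0.12, THBS2 -0.44, EFNB2 -0.22, NTN1 -0.17, RAB27B -0.78, SDC4 -0.30, SDC1 -0.35, HGS -0.15, NFKBIA -0.27, NFKB2 -0.20, TNFAIP3 -0.73, TRAF1 -0.41, RELB -0.29, IFIT2 -0.11, IFI44 -1.26, OAS1 -1.93, CHAC1 -1.83, SLC7A11 -0.63, STC2 -0.53, PPP1R15A -0.48, ATF3 -0.51, XBP1 -0.51, HYOU1 -0.18, EDEM1 -0.16, HSPA5 -0.20, CALR -0.23, CANX -0.11, BID -0.30, BCL2L2 -0.16, CASP8 -0.16, SPINK1 -3.68, SLAMF7 -2.64, KRTAP21-2 -3.11, SELE -2.10, TLR4 -5.65, LINC00440 -5.12, SEC61A1 -0.27, SEC24D -0.19. For genes lower in siRAB3IP they were KRT8 0.11, KRT18 0.16, COL1A1 0.36, METTL7A 0.38, FZD4 0.49, DPYSL2 0.56, KDM7A 0.43, CTSV 0.41, TST 0.13, COL27A1 0.84, EFEMP2 0.32, MRC2 0.33, PLTP 0.30, RASSF2 0.63, NYNRIN 0.54, TFRC 0.094, DEPP1 0.34, CS 0.30, H1-2 0.054, HIST1H3B 0.074, H2AC11 0.031, RAB8B 0.31, EXOC1 0.14, RAB3D 0.26, KCNMB4 0.23, YEATS4 0.19, CCND1 0.54, E2F5 0.16, CCNE1 0.21, LIG1 0.13, RPA3 0.056, RRM2B 0.12, KIF20A 0.17, KIF14 0.23, KIF22 0.085, MAD2L1 0.0070, CDC20 0.048, ANAPC4 0.10, CDC27 0.087, BUB1 0.13, CCNB1 0.080, CDC25C 0.13, SEPTIN2 0.16, SEPTIN11 0.15, HMMR 0.22, GAS1 0.29, CCNG2 0.40, YPEL3 0.36, SESN1 0.21, MXI1 0.087, MERTK 0.23, EPHB2 0.29, DEPTOR 0.25, DDIT4 0.12, MTOR 0.16, ODC1 0.34, SAT1 0.16, PAOX 0.39, AZIN2 0.42, OAZ2 0.12, U2SURP 0.12, SF1 0.15, CDC40 0.19, HNRNPF 0.34, HNRNPK 0.081, SRSF12 0.092, TRA2A 0.088, MBNL3 0.13, PTBP2 0.088, RBM5 0.22, RAMAC 0.27, VIRMA 0.33, YTHDC2 0.12, IGF2BP3 0.25, ADAR 0.066, PARN 0.053, LSM14B 0.30, DCP1B 0.14, BMP4 0.41, LTBP3 0.28, LTBP4 0.39, WNT11 0.12, IGFBP6 0.56, SEMA4A 0.27, EFNB3 0.35, IFIT1 0.32, BMF 0.56, IFT88 0.21, IFT43 0.33, IFT74 0.18, IFT172 0.25, IFT140 0.27, SOX2 0.093, SOX9 0.052, SOX3 0.85, SOX18 0.15.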

Other observations

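The steepest rises came from genes with few fragments. Of 104 genes called higher by 4-fold or more, 100 lay under 5 CPM on average over the 6 libraries, 84 were under 1 CPM, and 4 had no fragment in either control library. In the other direction 13 genes fell by 4-fold or more. The rises chosen after their values were seen included immune and secreted genes. SPINK1, a secreted protease inhibitor, read 0.214 and 0.0726 CPM in control and 5.34 and 3.81 in siRAB3IP, SLAMF7, a receptor of lymphocytes, 0.615 and 0.532 CPM in control and 7.70 and 6.47 in siRAB3IP, and the hair keratin-associated KRTAP21-2 0.401 and 0.290 CPM in control and 7.91 and 5.03 in siRAB3IP. The endothelial selectin SELE† read 0.214 and 0.145 CPM in control and 1.85 and 1.01 in siRAB3IP. TLR4, the receptor for bacterial lipopolysaccharide, had no fragment in control and 0.317 and 0.266 CPM in siRAB3IP, and the long intergenic RNA LINC00440 had none in control and 1.08 and 1.01 CPM in siRAB3IP. In siCAMSAP1 TLR4 read 0 and 0.0254 CPM and LINC00440 0.0258 and 0 CPM. Both genes passed the filter on low counts only through the siRAB3IP libraries, so their calls could not have been lower ones. The floor of 3 fragments stands for 0.0757 to 0.0803 CPM before the TMM correction. Dropping libraries singly left 5 of 6 calls in place throughout, and the call of TLR4 ended without control replicate 2 or siRAB3IP replicate 1 or 2 (adjusted p from 0.0594 to 0.0724 there).

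Grouped by the stem of the symbol, after the values were seen, some families had many calls in 1 direction. Among all 14661 protein-coding genes tested 9.09% were called higher and 7.2% lower. Among those that averaged 5 CPM or more 18.9% were called. Of 15 IFT genes, which carry cargo in cilia, 5 fell and 0 rose (33.3% called). IFT88 read 10.3 and 10.8 CPM in control and 6.85 and 5.41 in siRAB3IP (-0.78 ± 0.15, adjusted p = 0.00480), and IFT43†, IFT74†, IFT172† and IFT140† fell by 0.48, 0.47, 0.42 and 0.38. Of 24 SEC genes, which share a symbol stem and not 1 function, 7 rose and 0 fell (29.2% called). The translocon pore SEC61A1† read 266 and 248 CPM in control and 381 and 393 in siRAB3IP (0.59 ± 0.08, adjusted p = 0.000481). The vesicle coat protein SEC24D read 22.6 and 25.6 CPM in control and 34.1 and 38.5 in siRAB3IP. Of 67 RAB genes 13 rose and 2 fell (22.4% called), a share not far from the 18.9% of protein-coding genes that averaged 5 CPM or more. Of 15 SOX genes 4 fell and 0 rose (26.7% called), namely SOX2 (-0.39), SOX9 (-0.56), SOX3 (-1.47) and SOX18† (-1.16). Of these, SOX18 alone was also called against siCAMSAP1 (-1.42, adjusted p = 0.0133). SOX2, SOX9 and SOX3 were not (-0.25, -0.078 and -0.30, adjusted p from 0.224 to 0.818), and SOX3 read 1.68 and 1.47 CPM in siCAMSAP1 and 1.06 and 1.49 in siRAB3IP. For SLC transporters the calls numbered 56 higher and 18 lower of 290 (25.5% called). 2 of the 11 calls named held in every fit without 1 library, and SOX2, SOX9, SOX18, IFT43, IFT74, IFT172, IFT140, SOX3 and IFT88 no longer passed without at least 1 of control replicates 1 and 2, siRAB3IP replicates 1 and 2 and siCAMSAP1 replicates 1 and 2 (adjusted p from 0.0634 to 0.276 there). Another scaling, filter or tool ended the call of SOX2 and SOX18 (adjusted p up to 0.0726).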
